A study of Mus musculus with 6 samples.

Results

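The 10 genes described here are Lgr5, Ascl2, Smoc2, Axin2, Rnf43, Znrf3, Sox9, Cd44, Ephb2 and Lrig1, which mark the stem and progenitor cells at the base of the colon crypt or are targets of Wnt signalling there. They were taken by name from the deposited transcript table, with each transcript counted once and TPM summed per gene symbol. TPM is a transcript abundance corrected for transcript length, and its total is fixed for each library. All 10 genes were found, among 30330 genes with a value. RNA came from the whole colon of male mice aged 12 weeks, labelled as strain C57Bl/6J. The WT group held 3 mice, and the R1ko group held 3 mice with the genotype Tnfrsf1a-/-, a loss of the gene for TNF receptor 1. The labels name no other allele and no treatment in either group. They do not say how the knockout line was bred or whether the mice were littermates.

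The colon epithelium is renewed from stem cells at the crypt base. Wnt ligands and R-spondins from the surrounding stroma stabilise beta-catenin in these cells, and beta-catenin with TCF factors switches on a set of target genes. Several targets feed back on the pathway: Lgr5 binds R-spondins, Rnf43 and Znrf3 are ligases that remove Frizzled receptors from the cell surface, and Axin2 is part of the complex that marks beta-catenin for destruction. Sox9 and Ascl2 are transcription factors of the crypt base, and Ephb2, Cd44, Lrig1 and Smoc2 are surface or secreted proteins found in the lower crypt. Crypt cells are a small share of a whole colon, and some of these genes are also used by stroma, leukocytes or skin appendages. In such samples fewer cells of a type and less RNA per cell cannot be told apart.

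Differences between genotypes in the RNA of the 10 genes did not pass the threshold, an adjusted p of 0.05 in limma, a linear model fitted to log2(TPM + 0.5) of every gene with a mean of at least 1 TPM. All 10 genes passed that filter, and 0 of them were called, against 38 of 14248 tested genes (0.267%, 13 higher and 25 lower in R1ko). At an unadjusted p under 0.05 the count was also 0 of 10, against 3.69% of all genes. The differences in the gene totals ran from -0.10 (Cd44) to 0.36 (Ascl2) on the log2 scale. The median over the 10 was 0.06, beside 0.02 over all tested genes, and 7 of the 10 were positive (6 after the scaling described next), beside 55.7% of all tested genes. As deposited, the lowest end of a 95% interval was -0.65 (Lgr5) and the highest 0.89 (Ascl2); each gene's own interval is given with its values.

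The libraries differed in a way that bears on every value. In WT replicate 2, transcripts without a gene held 27.4% of all TPM, against 1.86 to 7.23% in the other 5 libraries, which lowers the TPM of every gene in that library. Values are therefore also given after median-of-ratios scaling, which sets the typical gene level with other libraries (factor 0.786 for WT replicate 2 and 0.918 to 1.13 for the rest). After this scaling 0 of the 10 genes and 6 of all 14248 (0.0421%) were called, and at an unadjusted p under 0.05 the counts were 0 of 10 and 11.3% of all genes. The targeted gene Tnfrsf1a had totals of 71.2, 44.1 and 63.0 TPM in WT and 49.2, 36.5 and 46.9 TPM in R1ko (adjusted p = 1 with limma). Its transcripts separated the genotypes: ENSMUST00000125880 was at 1.20, 1.20 and 0.89 TPM in WT and at 18.0, 12.4 and 14.1 TPM in R1ko (limma adjusted p = 0.00124), which matches the labels of all 6 libraries. Geometric mean levels of 15 colon epithelium markers were 600, 457 and 624 TPM in WT and 637, 598 and 633 TPM in R1ko, and 0 of them were at 0. Leukocyte markers (13 genes, all detected) were at 4.12, 3.29 and 4.66 TPM in WT and 3.13, 2.33 and 4.63 TPM in R1ko, and fibroblast markers (12 genes) at 32.3, 25.0 and 32.8 against 28.4, 21.4 and 31.9 TPM. Tissue from beyond the colon was also present: hair follicle markers (13 of 14 in the table) had geometric means of 5.61, 1.61 and 4.12 TPM in WT and 1.5, 1.20 and 1.73 TPM in R1ko (5 of 10 tested called lower as deposited and 0 after scaling), squamous markers (12 genes) 48.9, 11.7 and 34.9 against 45.0, 34.1 and 42.0 TPM, and skeletal muscle markers (10 genes) 86.0, 7.13 and 21.2 against 37.5, 106.9 and 56.7 TPM.

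**Figure D1:**
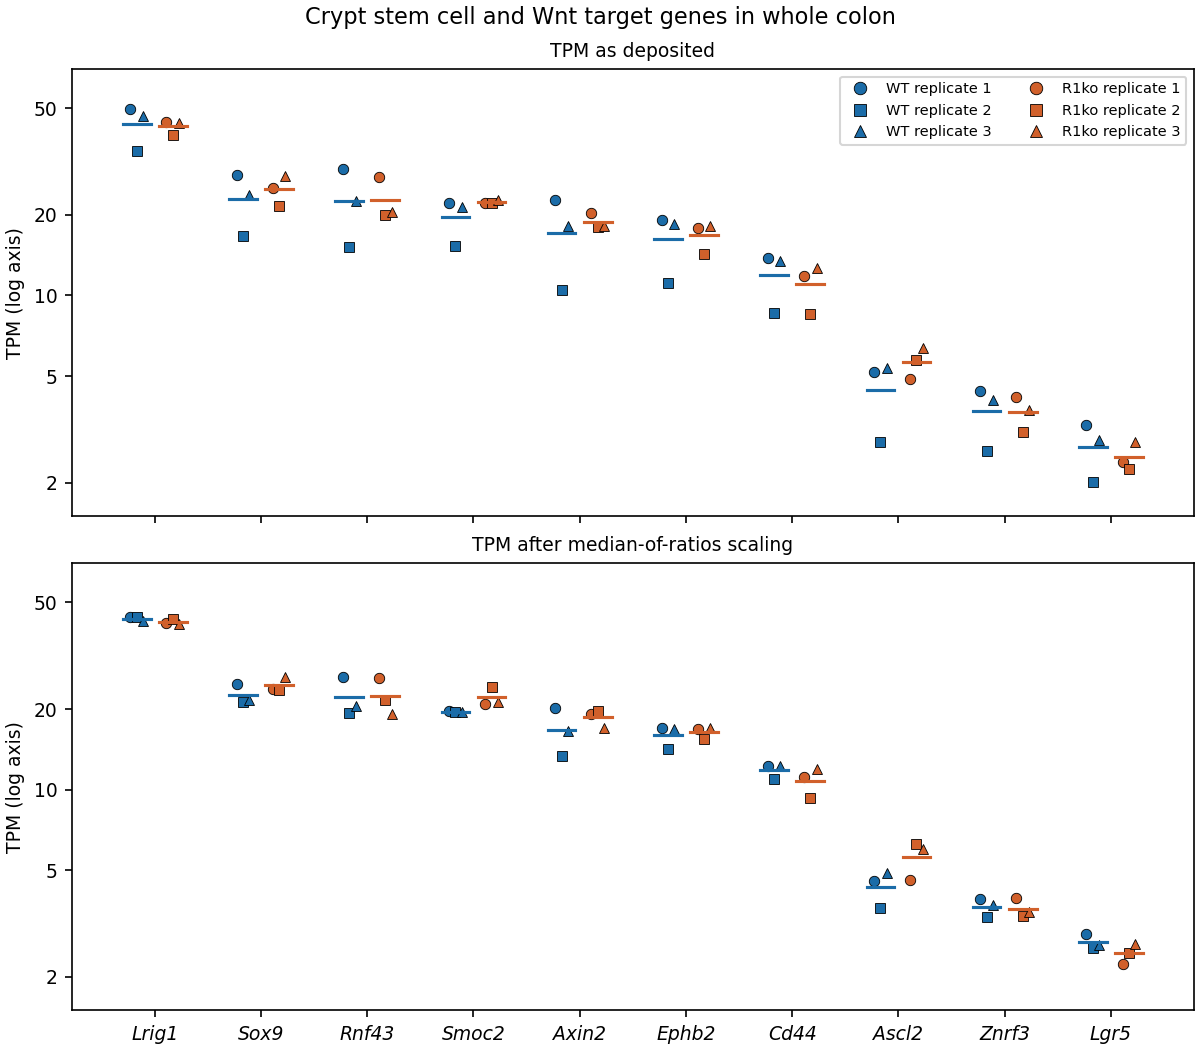
TPM (log axis) of each gene in the 3 WT and 3 R1ko libraries, as deposited (top) and after median-of-ratios scaling (bottom), with symbols for the replicate numbers and bars for group means. As deposited, WT replicate 2 is the lowest library for 9 of the 10 genes, and after scaling for 5 of them.

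The most abundant of the genes in WT colon was Lrig1, at 43.7 ± 8.03 TPM (SD, n = 3). Its mean over all 6 libraries was above that of 78.1% of tested genes. The next, Sox9, was 1.91-fold lower, and the WT ranges of these neighbours did not overlap. Sox9, Rnf43, Smoc2, Axin2, Ephb2 and Cd44 followed in that order of WT mean, from 22.9 to 12.0 TPM, and each pair of neighbours overlapped in WT. The step from Cd44 to Ascl2 was 2.69-fold, without overlap and in the same direction in 6 of 6 libraries. Ascl2, Znrf3 and Lgr5 were the lowest, at 4.44 ± 1.40, 3.69 ± 0.95 and 2.72 ± 0.65 TPM (SD, n = 3). The WT ranges of these 3 genes overlapped, but within each of the 6 libraries Ascl2 was above Znrf3 and Znrf3 above Lgr5. Lgr5, the best known marker of crypt base stem cells, had a mean over all 6 libraries above that of only 14.7% of tested genes in whole colon. The median coefficient of variation among WT mice was 25.5% for the 10 genes and 20.3% for the 8977 tested genes of the same range of levels. After scaling these medians were 8.41% and 8.56%.

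Among genes of the receptor complex, Lgr5 (ENSMUSG00000020140; mm10 chromosome 10, 115450311 to 115587780, minus strand) encodes a receptor for R-spondins. Its TPM was 3.27, 2.01 and 2.90 in WT and 2.38, 2.25 and 2.83 in R1ko. The R1ko values all lay within the WT range, whose lowest and highest values came from replicates 2 and 1. The difference was -0.09 ± 0.27 on the log2(TPM + 0.5) scale (SE; 95% interval -0.65 to 0.47), and -0.12 ± 0.12 after scaling (limma adjusted p = 0.725). The pseudocount of 0.5 makes these log2 values understate the change of genes as low as this. Lgr5 has 8 transcripts with a value, of which the coding ENSMUST00000020350 had a mean of at least 1 TPM. It held 75.0, 76.7 and 70.9% of Lgr5 TPM in WT and 82.0, 94.6 and 82.6% in R1ko. The groups did not overlap in this share, which was also so for 15.9% of 9845 genes with at least 2 transcripts (exact two-sided permutation p = 0.1, the smallest that 3 against 3 can give; 0.267 adjusted over 8 genes). The coding transcript itself was at 2.45, 1.54 and 2.05 TPM in WT and 1.95, 2.13 and 2.33 TPM in R1ko, and these ranges overlapped.

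Rnf43 and Znrf3 encode membrane ubiquitin ligases that Lgr5 and R-spondin hold in check. Rnf43 (ENSMUSG00000034177; chromosome 11, 87662722 to 87735539, plus strand) had 29.8, 15.2 and 22.6 TPM in WT and 27.6, 19.9 and 20.4 TPM in R1ko. Replicate 1 was the highest library of both groups, and the R1ko values lay within the WT range. The difference was 0.04 ± 0.24 (log2, SE; 95% interval -0.44 to 0.53), and 0.02 ± 0.15 after scaling (limma adjusted p = 0.974). Znrf3 (ENSMUSG00000041961; chromosome 11, 5276324 to 5444847, minus strand) had 4.40, 2.62 and 4.06 TPM in WT and 4.17, 3.08 and 3.73 TPM in R1ko. Its groups overlapped as well, with a difference of 0.01 ± 0.26 (95% interval -0.53 to 0.55). After scaling the direction turned, at -0.02 ± 0.12 with an interval from -0.29 to 0.26 (limma adjusted p = 0.967). The scaled intervals correspond to ratios of R1ko to WT between 0.791 and 1.29 for Rnf43 and between 0.818 and 1.20 for Znrf3.

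Rnf43 is the gene of the set with the most transcripts above 1 TPM, 6 of its 9. The most abundant were noncoding models: ENSMUST00000134684, which keeps an intron, at 7.04, 4.01 and 5.37 TPM in WT and 6.48, 4.56 and 4.41 TPM in R1ko, and the short processed transcript ENSMUST00000150866, at 6.95, 3.03 and 5.06 against 5.29, 3.24 and 3.61 TPM. The share of ENSMUST00000134684 in Rnf43 was 24.6 ± 1.55% in WT and 22.6 ± 0.979% in R1ko (SD, n = 3). The groups did not overlap (exact permutation p = 0.1, 0.267 adjusted over 8 genes), as was so for 15.9% of 9845 genes with at least 2 transcripts. The nearest values were 23.6% in WT replicate 1 and 23.5% in R1ko replicate 1. Coding transcripts began in separate places. The 3 from the upstream region (first bases between 87663087 and 87664549) together had 13.6, 6.57 and 10.4 TPM in WT and 12.6, 9.44 and 10.3 TPM in R1ko. The single coding transcript from the downstream start (87699897), ENSMUST00000040089, had 0.54, 1.58 and 1.22 TPM in WT and 0.73, 1.64 and 1.06 TPM in R1ko. The downstream start thus gave 3.82, 19.4 and 10.5% of coding Rnf43 in WT and 5.50, 14.8 and 9.30% in R1ko, which overlapped (exact permutation p = 0.9). In both groups replicate 2 had the highest share and replicate 1 the lowest. ENSMUST00000092800, a coding transcript of the upstream region named after its values were seen, had 3.93, 2.36 and 3.33 TPM in WT and 4.0, 3.94 and 4.15 TPM in R1ko, without overlap, as had 8.19% of tested transcripts, and it was not called (limma adjusted p = 1, and 0.456 after scaling).

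The 250 bases before the first start of the upstream region and before the downstream start are shown because coding transcripts from both were measured in every library. The first window precedes ENSMUST00000165679 (5.16, 2.36 and 4.75 TPM in WT and 4.26, 3.16 and 2.94 TPM in R1ko), while the other coding transcripts of the upstream region begin at 87664274 and 87664549 and the noncoding ENSMUST00000134684 at 87662722, before the window. They were read from the RefSeq promoter table of GRCm38.p6 (chr11:87662837-87663086 and chr11:87699647-87699896, plus strand), written 5′ to 3′ with no base marked.
Rnf43 first upstream start: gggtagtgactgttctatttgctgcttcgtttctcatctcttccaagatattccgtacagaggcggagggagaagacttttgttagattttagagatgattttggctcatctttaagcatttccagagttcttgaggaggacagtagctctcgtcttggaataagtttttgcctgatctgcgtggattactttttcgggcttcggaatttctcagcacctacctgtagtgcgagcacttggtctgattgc
Rnf43 downstream start: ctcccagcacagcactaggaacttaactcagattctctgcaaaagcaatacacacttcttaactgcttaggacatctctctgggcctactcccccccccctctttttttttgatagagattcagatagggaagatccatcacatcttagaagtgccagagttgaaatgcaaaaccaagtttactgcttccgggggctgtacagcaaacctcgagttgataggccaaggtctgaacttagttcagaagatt
Short matches to the TCF/LEF motif, searched as CTTTG followed by 2 letters that are each A or T (4 motifs, both strands), were counted in 300-base promoters (250 before to 50 after the start). RefSeq gave 7 promoters for 6 of the genes (Cd44, Ephb2, Lrig1, Ascl2, Axin2 and both starts of Rnf43), and 0 of 7 held a match, where 5544 of all 32851 promoters (16.9%) held 1 or more. Lgr5, Smoc2, Znrf3 and Sox9 had no entry. The absence of a match says only that these letters were not in this window.

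Axin2 (ENSMUSG00000000142; chromosome 11, 108920349 to 108950783, plus strand) is a scaffold of the beta-catenin destruction complex and a widely used readout of Wnt signalling. Its TPM was 22.8, 10.5 and 18.3 in WT and 20.4, 18.1 and 18.2 in R1ko. All R1ko values lay within the WT range, and WT replicate 2 was far below the other 5 libraries. The difference was 0.20 ± 0.24 (log2, SE; 95% interval -0.30 to 0.70) and 0.17 ± 0.15 after scaling (limma adjusted p = 0.657). Scaling did not remove the spread of this gene: the scaled WT values were 20.1, 13.3 and 16.6 TPM, a coefficient of variation of 20.5%, the highest of the 10 genes. Without WT replicate 2 the unscaled difference was -0.11, where the median of all genes was -0.13. The full coding transcript ENSMUST00000052915 held 57.3 ± 6.03% of Axin2 in WT and 56.5 ± 5.74% in R1ko (SD, n = 3; exact permutation p = 0.9). The other transcripts above 1 TPM were ENSMUST00000140821, a model of the first part of the gene with 2 exons (4.83 ± 2.32 and 5.23 ± 0.88 TPM), and ENSMUST00000106711 (1.87 ± 1.01 and 2.07 ± 1.26 TPM).

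Ascl2 and Sox9 are transcription factors of the crypt base, the first of them a Wnt-dependent regulator of stem cell identity. Ascl2 (ENSMUSG00000009248; chromosome 7, 142966829 to 142969264, minus strand) had 5.16, 2.83 and 5.34 TPM in WT and 4.86, 5.76 and 6.37 TPM in R1ko. Its highest libraries were R1ko replicates 3 and 2, while R1ko replicate 1 lay within the WT range. This gene had the largest difference of the set, 0.36 ± 0.26 (log2, SE; 95% interval -0.18 to 0.89), and 0.33 ± 0.16 after scaling (interval -0.04 to 0.71; limma adjusted p = 0.476). Nearly all Ascl2 TPM belonged to the single-exon model ENSMUST00000121862 in 5 libraries (99.7 to 99.9% of the gene), but 23.3% in R1ko replicate 1. There the model ENSMUST00000009392 with 3 exons was at 3.73 TPM, where the other 5 libraries had 0.01 TPM or less. The models share 796 of the 814 bases of the shorter, so the split between them is uncertain. TPM is corrected for transcript length, and the longer model has 1605 bases, so the gene total also depends on this split. The total of R1ko replicate 1, its place within the WT range and the size of the Ascl2 difference are uncertain to that extent. Sox9 (ENSMUSG00000000567; chromosome 11, 112782224 to 112787760, plus strand) has 1 transcript and had 28.2, 16.6 and 23.8 TPM in WT and 25.2, 21.6 and 28.0 TPM in R1ko. The R1ko values lay within the WT range, and the difference was 0.15 ± 0.22 (95% interval -0.31 to 0.61), or 0.12 ± 0.09 after scaling (limma adjusted p = 0.622). Sox9 and Lgr5 are also made in hair follicles, whose markers were at 4.12 to 5.61 TPM in WT replicates 3 and 1 and at 1.20 to 1.73 TPM in the other 4 libraries. Their part in the values was not tested.

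Smoc2 (ENSMUSG00000023886; chromosome 17, 14279506 to 14404790, plus strand) encodes a secreted calcium-binding matrix protein that marks crypt stem cells and is also made by stromal cells. It had 22.2, 15.3 and 21.3 TPM in WT and 22.2, 22.2 and 22.7 TPM in R1ko. The R1ko values lay close together at or above the top of the WT range. The groups as deposited overlapped only through R1ko replicate 2, at 22.154 TPM against 22.159 TPM in WT replicate 1. The scaled values were 19.6, 19.4 and 19.4 TPM in WT and 20.9, 24.1 and 21.3 TPM in R1ko. Smoc2 was the 1 gene of the 10 whose groups did not overlap after scaling, beside 18.5% of all tested genes, and 0 of the 10 separated as deposited, beside 4.98%. Its difference was 0.20 ± 0.22 as deposited (log2, SE; 95% interval -0.24 to 0.65) and 0.18 ± 0.08 after scaling (interval -0.01 to 0.36; limma adjusted p = 0.461; exact permutation p = 0.1). The fibroblast markers had a median difference of -0.15 with 1 of 12 positive, and their part in the Smoc2 values was not tested. Measured against colon epithelium markers of the same library, Smoc2 differed by 0.04 (log2).

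**Figure D2:**
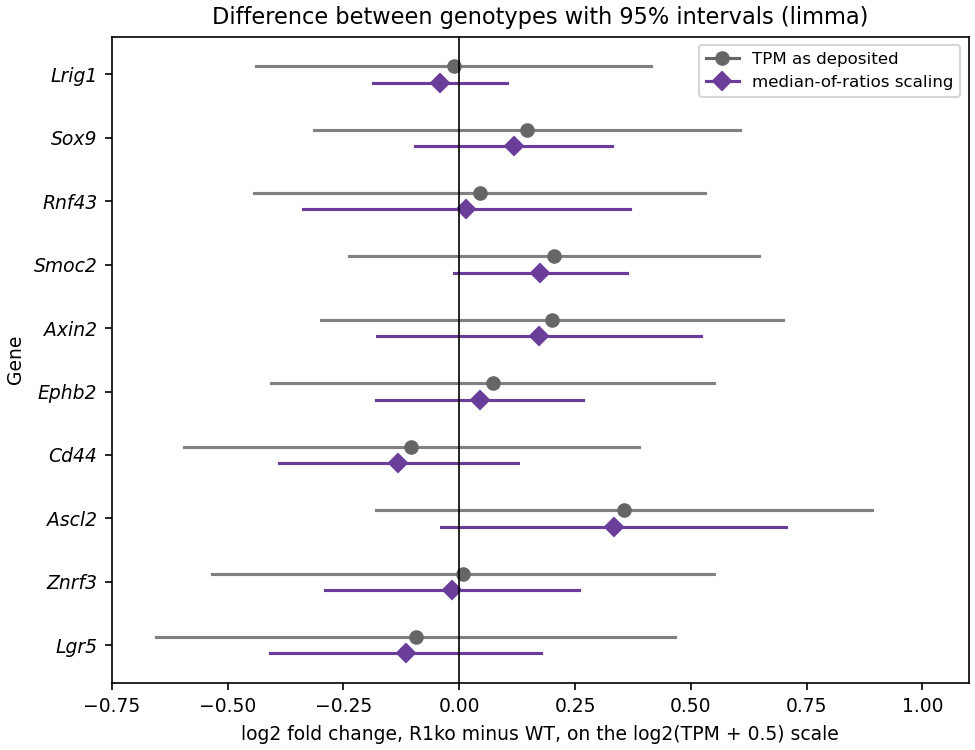
Difference between R1ko and WT for each gene (log2 of TPM + 0.5) with its 95% interval from limma, as deposited (grey circles) and after median-of-ratios scaling (purple diamonds). All 20 intervals include 0, and the scaled intervals are narrower.

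Ephb2 and Cd44 are surface proteins of the lower crypt. Ephb2 (ENSMUSG00000028664; chromosome 4, 136647539 to 136835988, minus strand) is a receptor for ephrin-B ligands that keeps crypt cells in their place along the crypt. It had 19.1, 11.1 and 18.5 TPM in WT and 17.9, 14.2 and 18.1 TPM in R1ko. Replicate 2 was the lowest library of both groups, and the R1ko values lay within the WT range. The difference was 0.07 ± 0.23 (log2, SE; 95% interval -0.41 to 0.55), or 0.04 ± 0.10 after scaling (limma adjusted p = 0.872). Its leading transcripts, ENSMUST00000059287 (9.45 ± 2.15 TPM in WT and 8.99 ± 1.5 in R1ko), ENSMUST00000105846 (4.74 ± 1.55 and 5.83 ± 0.33) and ENSMUST00000105845 (1.33 ± 0.39 and 1.77 ± 0.35), have coding lengths of 2961, 2961 and 2958 bases. None of these 3 transcripts was called, beside 0.0419% of all 31056 tested transcripts, and the counts for all 10 genes were 0 of 23 tested transcripts as deposited and 0 of 23 after scaling (all transcripts 0.0451%).

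Cd44 (ENSMUSG00000005087; chromosome 2, 102811141 to 102901665, minus strand) encodes the hyaluronan receptor, whose transcripts either skip or include a block of variable exons; forms with variable exons are typical of crypt epithelium and the standard form of leukocytes and stroma. The exons that set the most abundant form in this colon, ENSMUST00000111194, apart from the standard form are exons 6 to 10 of that transcript, at chr2:102842261-102842377, chr2:102839358-102839477, chr2:102834234-102834335, chr2:102832483-102832572 and chr2:102831330-102831536 (mm10, minus strand). They are shown 5′ to 3′ in transcript direction, with no base marked, since they are the stretches whose presence the transcript values read.
Cd44 exon 6: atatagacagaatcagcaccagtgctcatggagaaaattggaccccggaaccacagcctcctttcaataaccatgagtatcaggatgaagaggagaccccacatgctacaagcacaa
Cd44 exon 7: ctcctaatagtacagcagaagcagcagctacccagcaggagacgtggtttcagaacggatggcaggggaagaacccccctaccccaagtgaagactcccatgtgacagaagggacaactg
Cd44 exon 8: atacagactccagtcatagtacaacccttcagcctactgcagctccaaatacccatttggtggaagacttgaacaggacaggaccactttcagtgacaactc
Cd44 exon 9: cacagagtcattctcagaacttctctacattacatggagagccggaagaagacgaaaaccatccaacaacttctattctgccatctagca
Cd44 exon 10: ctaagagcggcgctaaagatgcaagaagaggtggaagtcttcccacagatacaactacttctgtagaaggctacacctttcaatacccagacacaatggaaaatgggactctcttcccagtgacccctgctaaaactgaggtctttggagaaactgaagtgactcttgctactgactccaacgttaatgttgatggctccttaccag
All 5 are coding, with lengths of 117, 120, 102, 90 and 207 bases, each a whole number of codons. The coding part has 577 codons in ENSMUST00000111194 and 365 in the standard form ENSMUST00000099673. The longest form, ENSMUST00000005218, holds these 5 exons among 10 that the standard form lacks, and has 780 codons.

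Cd44 totals were 13.8, 8.64 and 13.5 TPM in WT and 11.8, 8.56 and 12.7 TPM in R1ko. Replicate 2 was low in both groups, and the groups overlapped. The difference was -0.10 ± 0.24 (log2, SE; 95% interval -0.59 to 0.39) and -0.13 ± 0.11 after scaling (interval -0.39 to 0.13; limma adjusted p = 0.648). R1ko replicate 2, the library with the least Cd44, also had the lowest level of leukocyte markers, 2.33 TPM, and the part of these cells in the value was not tested. The form with exons 6 to 10 was at 6.44, 3.79 and 4.40 TPM in WT and 5.07, 4.92 and 5.79 TPM in R1ko. The longest form was at 4.33, 1.57 and 4.2 TPM against 3.56, 1.95 and 2.91 TPM, and the standard form at 2.47, 2.92 and 4.33 TPM against 2.89, 1.45 and 3.54 TPM. Each of these ranges overlapped, with differences of 0.13, -0.16 and -0.29 (log2; limma adjusted p = 1 for each, and 0.706 to 0.842 after scaling). Forms with variable exons made up 70.9 ± 9.11% of the 3 forms in WT and 76.2 ± 5.90% in R1ko (SD, n = 3; exact permutation p = 0.5). In every library they were therefore most of the Cd44 message, from 64.8% in WT replicate 2 to 82.6% in R1ko replicate 2. Reads of 50 bases are shorter than each of the exons shown, so the split among forms is an estimate.

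**Figure D3:**
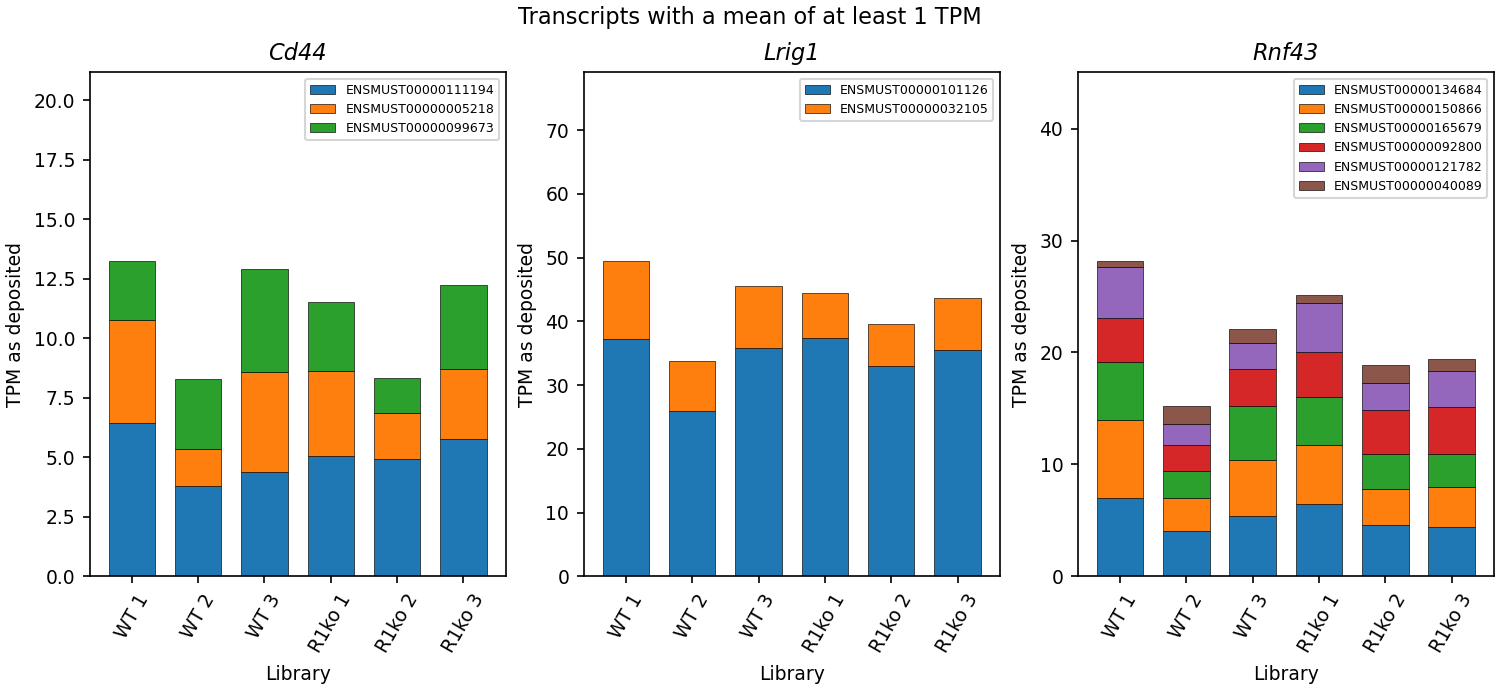
Stacked bars give the TPM as deposited of the transcripts of Cd44, Lrig1 and Rnf43 with a mean of at least 1 TPM in each library. ENSMUST00000032105 of Lrig1 is between 7.91 and 12.1 TPM in WT and between 6.56 and 8.06 TPM in R1ko.

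Lrig1 (ENSMUSG00000030029; chromosome 6, 94604529 to 94700158, minus strand) is a membrane protein that lowers ErbB receptor signalling and marks progenitors of the lower crypt. It had 49.8, 34.6 and 46.7 TPM in WT and 44.6, 39.8 and 44.2 TPM in R1ko. The R1ko values lay within the WT range, and after scaling all 6 libraries were between 41.5 and 44.1 TPM. The difference was -0.01 ± 0.21 (log2, SE; 95% interval -0.44 to 0.41) and -0.04 ± 0.06 after scaling. The scaled interval, from -0.19 to 0.10 or a ratio of R1ko to WT between 0.879 and 1.07, was the narrowest of the set (limma adjusted p = 0.801).

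Lrig1 had 2 main transcripts. It was among the 15.9% of 9845 genes with at least 2 transcripts whose groups did not overlap in the share of the leading one. ENSMUST00000101126 held 74.8, 74.8 and 76.8% of Lrig1 TPM in WT and 83.9, 83.1 and 80.4% in R1ko, without overlap between groups. These are means of 75.5 ± 1.17% and 82.5 ± 1.80% (SD, n = 3; exact permutation p = 0.1, 0.267 adjusted over 8 genes). The other, ENSMUST00000032105, was at 12.1, 7.91 and 9.77 TPM in WT and 6.98, 6.56 and 8.06 TPM in R1ko, which overlapped through WT replicate 2. Its difference was -0.42 ± 0.23 (limma adjusted p = 0.996) and -0.43 ± 0.12 after scaling (adjusted p = 0.355), so it was not called. These transcripts have the same coding exons, with a coding length of 3273 bases, and differ by an intron of 130 bases that ENSMUST00000032105 splices out in the last exon, beyond the coding part. Lrig1 lies 30.6 Mb from Tnfrsf1a on the same chromosome, so an effect of sequence that came along with the targeted locus and an effect of the genotype cannot be told apart.

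Because whole colon also holds muscle, stroma and immune cells, each gene was set against the mean log2 level of the 15 epithelium markers of the same library. Lgr5 was then at -7.31, -7.51 and -7.52 in WT and at -7.79, -7.76 and -7.57 in R1ko (log2 of the ratio). The groups did not overlap, and the difference was -0.26 (exact permutation p = 0.1; 0.5 adjusted over 10 genes). The separation of this low gene depended on the pseudocount: with 0.1 in place of 0.5, WT replicate 2 (-7.761) lay below R1ko replicate 3 (-7.756), and with TPM scaled before the pseudocount was added these libraries were at -7.57 and -7.56, so the groups overlapped in both cases. Lrig1 was at -3.58, -3.70 and -3.73 in WT and -3.82, -3.89 and -3.82 in R1ko, also without overlap, and differed by -0.18 (exact permutation p = 0.1; 0.5 adjusted). Its groups were also apart in both of those cases. These were 2 of the 10 genes, and by the same measure 27.8% of all tested genes did not overlap, so the share is close to the background. The epithelium markers themselves had a median difference of 0.18 with 14 of 15 positive, which lowers any ratio to them in R1ko. For the other 8 genes the groups overlapped, with differences from -0.27 (Cd44) to 0.19 (Ascl2).

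**Figure D4:**
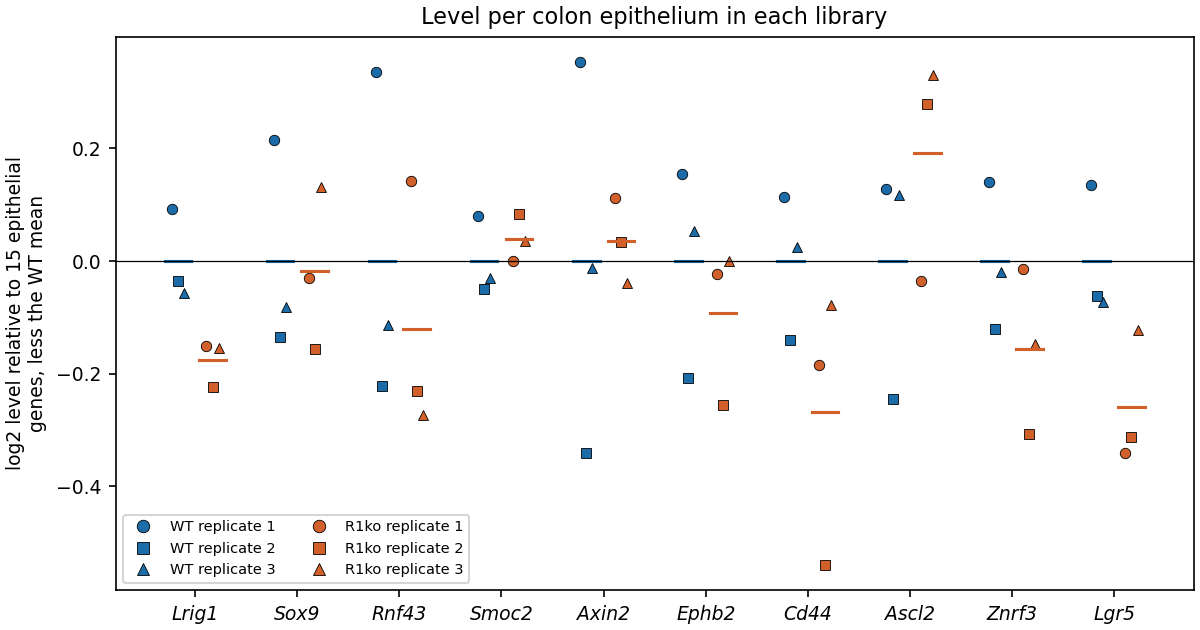
Log2 level of each gene relative to 15 epithelial genes of the same library, less the WT mean of that gene, for 3 WT and 3 R1ko libraries, with bars for group means. With the pseudocount of 0.5 used here the groups are apart for Lgr5 and Lrig1 and overlap for the other 8 genes; with 0.1, or with TPM scaled first, they overlap for Lgr5 too.

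A single library decided several of these orders. Without WT replicate 2, the groups of 4 genes (Lgr5, Cd44, Ephb2 and Lrig1) no longer overlapped as deposited, with R1ko lower in each. Groups were apart, in either direction, for 31.7% of all tested genes. In that comparison 8 of 10 differences were negative, from -0.31 (Cd44) to -0.06 (Sox9), and Ascl2 and Smoc2 were at 0.09 and 0.04. The median over all tested genes was itself -0.13 there. Without WT replicate 1, WT replicate 3, R1ko replicate 1, R1ko replicate 2 and R1ko replicate 3, the genes apart as deposited were 1, 0, 1, 1 and 0 of 10, where 12.5, 9.95, 8.86, 11 and 10.1% of all tested genes were apart. After scaling, 3, 2 and 3 genes were apart without WT replicates 1, 2 and 3 (33.9, 26.8 and 25% of all genes), and 2 without each of R1ko replicates 1, 2 and 3 (31.3, 25.1 and 32%). Smoc2, apart after scaling with all libraries, is 1 of each of these scaled counts by construction. None of the 10 genes was called by limma in any of them.

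Other genes of the same pathways were read from 9 lists with 169 genes, of which 139 reached a mean of 1 TPM. Of these 139 genes, 0 passed the threshold in either direction, as deposited or scaled, and 5 (3.60%) had an unadjusted p under 0.05, beside 3.69% of all tested genes (17, or 12.2%, after scaling, beside 11.3%). Their median difference was 0.05 (0.02 after scaling), and 88 of the 139 were positive as deposited. Of all tested genes 55.7% were positive as deposited and 49.4% after scaling. The positive counts given for each list are as deposited, and after scaling each was the same or lower. They fell to 6 of 13 other crypt stem cell genes, 13 of 21 Wnt ligands, receptors and R-spondins, and 13 of 22 beta-catenin core genes. The groups did not overlap for 12 of the 139 (8.63%) as deposited, beside 4.98% of all genes, and for 20 (14.4%) after scaling, beside 18.5%. The genes named are among the 3 with the smallest p of each list.

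Among 13 other crypt stem cell genes, 8 were positive with a median of 0.02. Aqp4, a water channel, was at 8.56, 6.45 and 10.7 TPM in WT and 14.1, 11.7 and 15.7 TPM in R1ko. Its groups did not overlap, with a difference of 0.68 ± 0.23 that was not called (limma adjusted p = 0.569, and 0.273 after scaling). Hopx, a marker of slowly cycling crypt cells, was at 67.0 ± 13.5 and 81.2 ± 2.08 TPM (SD, n = 3), without overlap. Tnfrsf19, a Wnt target and stem cell marker, was at 5.38 ± 1.82 and 4.13 ± 0.66 TPM, with overlap. Among 15 other Wnt target genes 11 were positive with a median of 0.10. Of these, Myc was at 19.0 ± 8.14 and 22.2 ± 0.22 TPM, Lef1 at 1.23 ± 0.31 and 0.87 ± 0.34 TPM, and Ets2 at 68.3 ± 14.1 and 77.4 ± 6.13 TPM.

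Upstream of the 10 genes, 15 of 21 Wnt ligands, receptors and R-spondins were positive with a median of 0.05. The ligand Wnt5b was at 2.79, 2.07 and 2.84 TPM in WT and 1.54, 1.15 and 1.89 TPM in R1ko. The R-spondin Rspo3, a stromal ligand of the Lgr receptors, was at 7.18, 5.96 and 7.15 TPM in WT and 5.06, 4.55 and 5.45 TPM in R1ko. Neither gene overlapped between groups and neither was called, with differences of -0.60 and -0.39 (limma adjusted p = 1 for both, and 0.334 after scaling). In the list of the beta-catenin core, 16 of 22 were positive with a median of 0.06. Cdx2, an intestinal transcription factor kept in that list, was at 9.65, 6.08 and 9.92 TPM in WT and 16.7, 12.8 and 18.8 TPM in R1ko. It did not overlap, and its difference of 0.89 ± 0.24 was the largest in the 9 lists but was not called (limma adjusted p = 0.159, and 0.132 after scaling). It did pass the threshold under some alternatives, among them a filter at 5 TPM. Its relative Cdx1 was at 173 ± 35.7 and 209 ± 24.2 TPM.

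The lists closest to single genes of the set had 0 calls as well. Of 12 ephrin and Eph genes, partners and relatives of Ephb2, 8 were positive with a median of 0.14. The ligand Efnb1 was at 54.5 ± 10.1 TPM in WT and 68.5 ± 4.96 TPM in R1ko, without overlap. Of 13 ErbB genes, the receptors that Lrig1 restrains and their ligands, 9 were positive with a median of 0.09, and the ligand Areg was at 33.4 ± 21.0 and 40.7 ± 4.2 TPM. Of 12 hyaluronan and Cd44 partner genes, 6 were positive with a median of -0.01. Esrp2, a splicing factor that promotes inclusion of Cd44 variable exons, was at 81.9, 61.8 and 81.7 TPM in WT and 61.1, 34.4 and 78.7 TPM in R1ko. These ranges overlapped, and the difference was -0.44 ± 0.24 (limma adjusted p = 1). Of 13 Notch and secretory genes, 8 were positive with a median of 0.05, and 0 were called. Atoh1, the factor that commits cells to the secretory lineage, was at 33.9, 16.3 and 28.2 TPM in WT and 37.3, 35.8 and 36.7 TPM in R1ko, without overlap, and its difference of 0.54 was the largest of that list (limma adjusted p = 1, and 0.334 after scaling). Reg4, a product of deep crypt secretory cells, was at 227 ± 44.8 and 296 ± 12.0 TPM, without overlap and with a difference of 0.40 (limma adjusted p = 1). Spdef, a factor of goblet cell maturation, was at 11.2 ± 1.5 and 15.1 ± 2.23 TPM, also without overlap. Of 20 proliferation genes 9 were positive with a median of -0.07. Mki67, a marker of cycling cells, was at 17.4 ± 2.19 and 14.2 ± 1.69 TPM, without overlap. The replication factors Mcm3 and Mcm6 were at 15.9 ± 3.19 and 12.8 ± 1.56 TPM and at 32 ± 4.36 and 26.6 ± 1.89 TPM. The groups overlapped for Mcm3 and did not for Mcm6.

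**Figure D5:**
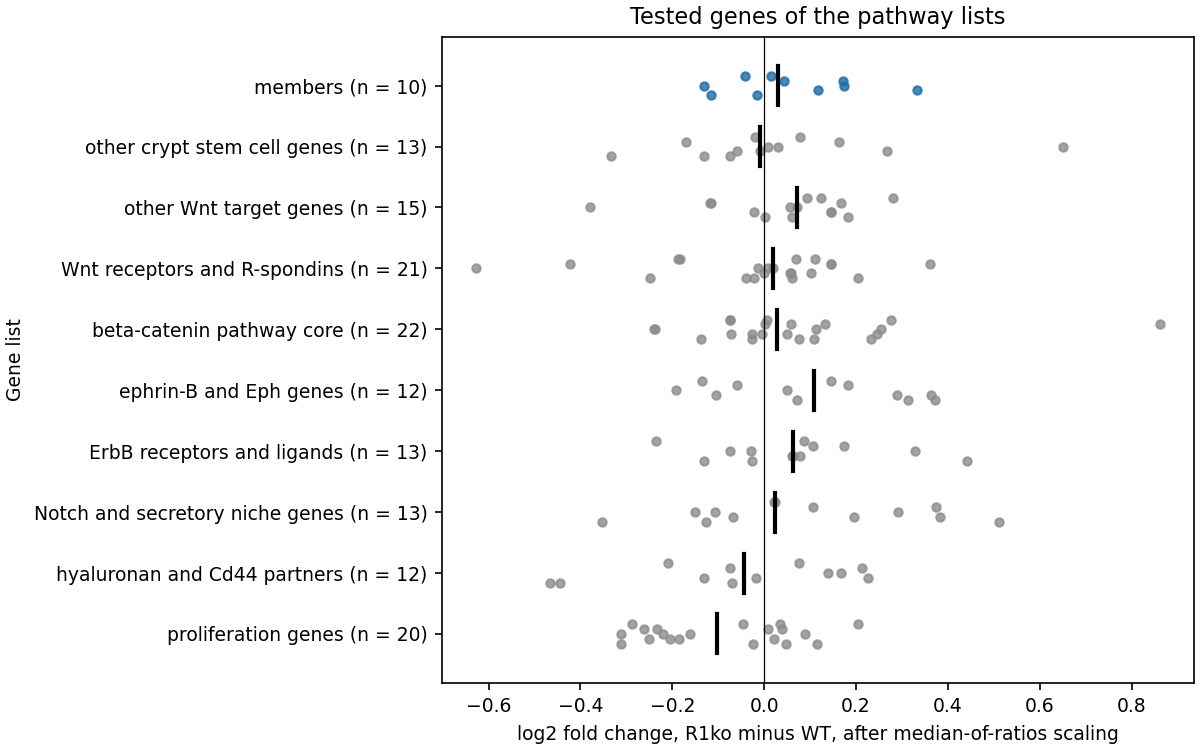
Each point is a tested gene, placed by its log2 fold change between R1ko and WT after median-of-ratios scaling, for the 10 genes (blue) and 9 pathway lists (grey), with a bar at each list's median. The point farthest to the right is Cdx2 at 0.86, and all medians lie between -0.10 and 0.11.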

How the data were processed

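Polyadenylated RNA of 6 whole colons was read as paired ends of 50 bases. The authors deposited a transcript-level abundance signal in TPM, quantified with kallisto 0.43.1 against mm10, per the submitters' processing notes, which also name sleuth; its output was not used here. TPM keeps no depth, so precision rests on the 3 mice per group, and the labels do not say that same-numbered mice are paired. The table had 132639 lines for 131206 transcripts; 1433 lines repeated a transcript with the same values and were dropped, 43008 transcripts had no value and 1380 had no gene. TPM were summed per gene and tested with limma 3.58.1 in R 4.3.3 (eBayes with trend) on log2(TPM + 0.5), for genes or transcripts with a mean of at least 1 TPM, without covariates, with Benjamini-Hochberg adjustment and a threshold of 0.05. Single values were compared by two-sided exact permutation (SciPy 1.17.1). The models were also run on simulated data. Of 100 genes shifted by 1 log2 unit, limma called 36% as deposited and 71% after scaling. Of 100 transcripts given the same shift it called 2%. For a shift of 2 log2 units it called 96% of genes in both settings and 48% of transcripts. A count of 0 calls is therefore weak evidence of no change, above all for transcripts. Transcript models and exon coordinates are from GENCODE for mm10, which may differ from the authors' transcript set.

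The 10 genes and all lists were chosen with earlier results of these data known. All 10 genes were named, with their 3 most abundant transcripts above the filter, and of each other list the genes called or, with none called, up to 3 with the smallest unadjusted p. Alternatives were other pseudocounts (0.1 and 1), no filter or a filter at 5 TPM, 3 scalings, the replicate number as a block, and each library left out; leaving out libraries together with scaling, and scaling before the ratio to epithelium, were chosen after seeing the data.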

Additional observations from a re-analysis of the deposited data

How the results depend on the processing

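The count of called members stayed at 0 of 10 under all 21 alternatives (8 of 10 tested with the filter at 5 TPM), and that of their transcripts at 0 under all 20. The lowest adjusted p of a member was 0.305 (Lrig1, scaled to the epithelium list). Ascl2 and Smoc2 were positive under all 21. The directions of the others were not stable. With TPM rescaled over transcripts with a gene, Rnf43, Znrf3 and Ephb2 were at -0.082, -0.10 and -0.052. Scaled to the epithelium list, Rnf43, Znrf3, Sox9 and Ephb2 were at -0.12, -0.13, -0.014 and -0.086. Znrf3 was at -0.015 after median-of-ratios scaling, and at -0.015 with the replicate block added. Leaving out each library gave ranges of -0.27 to 0.029 (Lgr5), -0.11 to 0.43 (Axin2), -0.21 to 0.27 (Rnf43), -0.19 to 0.13 (Znrf3), -0.061 to 0.31 (Sox9), -0.31 to 0.061 (Cd44), -0.17 to 0.21 (Ephb2) and -0.17 to 0.090 (Lrig1). With scaling as well, the turned values were -0.071 and -0.037 (Rnf43 and Ephb2, without WT replicate 2), -0.029 and -0.099 (Rnf43, without WT replicate 3 and R1ko replicate 1), and -0.070, -0.0044 and -0.073 (Znrf3, without WT replicate 2, WT replicate 3 and R1ko replicate 1).

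Over all genes, 38 calls became 24 with a pseudocount of 0.1, 2 without a filter, 142 with a filter at 5 TPM, 6 with median-of-ratios scaling, 4 rescaled over transcripts with a gene, 4 scaled to epithelium and 71 with the replicate block; without each library they ranged from 20 to 298, and with scaling from 2 to 21. For single transcripts, 13 calls became 7 with a pseudocount of 0.1, 1 without a filter, 23 with a filter at 5 TPM, 1 with the block and 1 with block and scaling (1 to 61 without each library, 1 to 9 with scaling). Of the pathway genes, Cdx2 was the 1 called with a filter at 5 TPM, with the block and with block and scaling, and 0 to 2 were called without each library. The count of members apart per epithelium was 1 (Lrig1, without Lgr5) with a pseudocount of 0.1. It was 1 (Lrig1) with median-of-ratios scaling before the pseudocount, a setting chosen after seeing the data. Without each library it was 2 to 5 of 10 (4 without WT replicate 2, 5 without R1ko replicate 1). With all libraries 27.8% of all tested genes were apart by this measure. That share was not counted with a library left out, so these counts have no background beside them. Transcript shares were apart for 3 of 8 genes with all libraries, beside 15.9% of all genes with at least 2 transcripts. Without each library they were apart for 3 to 4 of the 8, and the share over all genes was not counted there. The causes were not tested. As deposited, same-numbered deviations from the group means correlated at 0.05, 0.13 and 0.18, and unlike-numbered ones at -0.24 to 0.10. R1ko replicate 1 was closest to WT replicate 3 (0.10). These small values do not settle whether the replicate numbers pair the mice. TPM holds no depth, so the intervals rest on the spread between mice alone.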
